A study of Mus musculus with 8 samples.

Results

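The transcripts described here are those of the enzymes that the exocrine pancreas secretes to digest fat and starch. They were chosen by gene symbol from the rlog values of mouse pancreas, and all 9 symbols were found among the 15047 genes. The 6 genes of lipid digestion are Pnlip, Pnliprp1, Pnliprp2, Cel, Clps and Pla2g1b, and the 3 amylase genes are Amy2a5, Amy2b and Amy1. RNA-Seq had been made from the pancreas of 8 male mice in 3 groups. The LFD group held 3 C57BL/6 WT mice on a low-fat diet, the HFD group held 3 C57BL/6 WT mice on a diet with 60% of its calories from fat, and the ob/ob group held 2 leptin-deficient mice (C57BL/6J, ob/ob) on standard chow. The mice were 4 weeks old when LFD or HFD was started, and both diets lasted 10 weeks. The sample labels do not mention a transplant, but the study describes the same mice as carriers of neoplastic pancreatic organoids (mT) implanted in the pancreas, so the tissue may hold tumor and stroma beside the normal gland. The ob/ob mice differed from the LFD mice in genotype and in diet together, and these cannot be told apart. Each replicate was a different animal. Sequencing batches are not given in the sources used here, and no values within batches could be computed.

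Acinar cells make up most of the pancreas and fill their zymogen granules with digestive enzymes. Pancreatic lipase splits triglycerides at the surface of fat droplets, and it needs colipase to stay active in the presence of bile salts, while alpha-amylase cuts starch into short sugars. The balance of lipase and amylase in the gland is known to adapt to the diet, with more lipase on fat and more amylase on starch, and the comparison of HFD with LFD addresses this balance in obese mice.

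The values were rlog values on a log2 scale, corrected for library size by the authors, so that a difference of 1 is a factor of 2 in expression. Sequencing depth is unknown, so errors are those between mice. The 8 mice differed in their level of acinar transcripts before any group was compared. The mean rlog value of 26 other acinar genes (proteases, granule proteins and Reg1, with no lipase or amylase, called the acinar reference) in the order of the replicate numbers was 16.23, 16.56 and 16.85 in LFD, 16.69, 14.72 and 12.73 in HFD, and 15.98 and 13.03 in ob/ob mice. HFD replicates 2 and 3 and ob/ob replicate 2 lay well below the other 5 mice. Values are given in the same order of replicates throughout. In bulk tissue, fewer acinar cells and less RNA per acinar cell cannot be told apart.

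The amylase genes lie side by side on the minus strand of chromosome 3 (GRCm38, Gencode M21), with Amy2b at chr3:113147656-113156727, Amy2a5 at chr3:113247178-113258837 and Amy1 at chr3:113555710-113606699. Between Amy2a5 and Amy1 lie further copies of the pancreatic amylase, of which Amy2a4 and Amy2a1 also have values, while Amy2a2 and Amy2a3 were not analysed here. These copies matter for every amylase value, because reads from identical stretches are divided among genes by probability. A window of 90 coding bases, bases 358 to 447 of Amy2a5 counted from 1 at the A of its start codon, is shown for 5 genes from the Gencode transcripts, 5′ to 3′, with bases that differ from Amy2a5 in capitals.

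Amy2a5: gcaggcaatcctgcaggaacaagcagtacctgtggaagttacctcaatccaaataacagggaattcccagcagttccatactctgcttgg
Amy2a4: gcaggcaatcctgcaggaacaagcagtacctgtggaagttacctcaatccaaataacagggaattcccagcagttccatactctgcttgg
Amy2a1: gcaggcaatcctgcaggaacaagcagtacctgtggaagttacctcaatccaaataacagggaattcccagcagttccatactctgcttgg
Amy2b: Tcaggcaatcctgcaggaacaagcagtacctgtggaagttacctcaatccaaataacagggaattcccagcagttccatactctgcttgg
Amy1: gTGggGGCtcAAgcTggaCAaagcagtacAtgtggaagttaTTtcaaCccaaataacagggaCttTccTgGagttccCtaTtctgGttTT

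In this window Amy2a4 and Amy2a1 had 0 differences from Amy2a5, Amy2b had 1 and Amy1 had 23. Over the whole aligned coding sequence, Amy2a4 was 100% identical to Amy2a5, Amy2a1 was 100% identical over the 735 bases of its shorter model, Amy2b was 98.1% identical with 29 differences in 1526 bases, and Amy1 was 89.9% identical with 154 differences in 1527 bases. Of all stretches of 31 bases in the transcript, 62.0% for Amy2a5, 60.4% for Amy2b and 5.16% for Amy1 were also found in another amylase transcript. The split of reads between Amy2a5, Amy2a4, Amy2a1 and Amy2b is therefore uncertain, and Amy1, the gene named for salivary amylase, is the copy best told apart. Gencode M21 lists Amy2b as an unprocessed pseudogene and RefSeq as protein coding. The pancreatic lipase family also lies side by side, on the plus strand of chromosome 19, with Pnlip at chr19:58652498-58681788, Pnliprp1 at chr19:58728887-58744169 and Pnliprp2 at chr19:58759719-58777534. Their coding sequences were 69.0% (Pnlip and Pnliprp1), 67.5% (Pnlip and Pnliprp2) and 65.3% (Pnliprp1 and Pnliprp2) identical, and they shared 0% of stretches of 31 bases. Cel lies at chr2:28555795-28563403, Clps at chr17:28558149-28560766 and Pla2g1b at chr5:115466262-115474722.

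Amylase and lipase were among the most abundant transcripts of the gland. By the mean rlog value over the 8 mice, Amy2a5 ranked 1 among all genes, Pnlip 5, Cel 7, Pnliprp1 13, Clps 21, Pnliprp2 33, Amy2b 43, Amy1 438 and Pla2g1b 589. To compare genes with each other, the log2 of the length of the longest Gencode transcript in kb was subtracted. In LFD mice this level per kb was 21.99 ± 0.38 (SD, n = 3) for Amy2a5, 20.33 ± 0.05 for Pnlip, 19.68 ± 0.14 for Cel, 19.06 ± 0.20 for Clps, 18.95 ± 0.12 for Pnliprp1, 16.24 ± 0.23 for Pnliprp2, 14.93 ± 0.44 for Amy2b, 12.94 ± 0.16 for Pla2g1b and 11.13 ± 0.46 for Amy1. Clps and Pnliprp1, neighbours in this order, differed by less than the SD of Clps, and all other neighbours differed by more than either SD. The order of the group means per kb was the same in HFD and in ob/ob mice. The 9 genes together made up 37.0%, 36.6% and 38.9% of the summed linear values in the LFD mice. Their share was 34.6%, 22.5% and 12.5% in the HFD mice, and 33.4% and 14.1% in the ob/ob mice. Amy2a5 alone held 26.9% to 30.9% in LFD mice, and 9.17% in HFD replicate 3.

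Pnlip, the main triglyceride lipase of pancreatic juice, had rlog values of 20.85, 20.95 and 20.91 in LFD mice, 20.65, 18.81 and 16.86 in HFD mice, and 20.24 and 17.24 in ob/ob mice. The LFD mice lay within 0.0965 of each other, and all 5 obese mice lay below them. Pnliprp1, a relative of Pnlip with little known lipase activity, had 19.56, 19.59 and 19.78 in LFD, 19.83, 17.79 and 15.78 in HFD, and 19.25 and 16.35 in ob/ob mice. HFD replicate 1 was the highest of all mice for Pnliprp1, so that HFD and LFD overlapped. Pnliprp2, which also acts on galactolipids and phospholipids, had 16.66, 16.88 and 17.12 in LFD, 16.90, 14.81 and 12.92 in HFD, and 16.34 and 13.26 in ob/ob mice. Again HFD replicate 1 lay among the LFD mice, and both ob/ob mice lay below them. Cel, the bile salt-stimulated lipase that also cleaves cholesterol esters, had 20.61, 20.69 and 20.88 in LFD, 20.69, 18.67 and 16.76 in HFD, and 20.29 and 17.17 in ob/ob mice.

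Clps encodes colipase, the cofactor that anchors pancreatic lipase to fat droplets. It had rlog values of 18.15, 18.35 and 18.56 in LFD, 18.74, 16.53 and 14.52 in HFD, and 18.08 and 14.87 in ob/ob mice, so that HFD replicate 1 was above all LFD mice. Pla2g1b, the secreted phospholipase that is made as a proenzyme and cleaves dietary phospholipids, had 11.99, 12.02 and 12.28 in LFD, 11.60, 9.86 and 7.88 in HFD, and 10.79 and 8.11 in ob/ob mice. Here every obese mouse lay below every LFD mouse, HFD replicate 1 included.

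The amylases were also lowest in HFD replicate 3 and ob/ob replicate 2. Amy2a5, the main pancreatic amylase in these values, had 23.58, 23.76 and 24.32 in LFD, 23.90, 21.43 and 19.75 in HFD, and 23.02 and 20.03 in ob/ob mice. Amy2b had 15.29, 15.39 and 16.09 in LFD, 15.57, 13.31 and 11.51 in HFD, and 14.70 and 11.89 in ob/ob mice. Amy1 had 11.73, 12.02 and 12.62 in LFD, 12.19, 10.00 and 8.33 in HFD, and 11.54 and 8.69 in ob/ob mice. For each amylase LFD replicate 3 was the highest mouse, HFD replicate 1 lay within the LFD range, and both ob/ob mice lay below it. The other copies, Amy2a1 and Amy2a4, followed the same order, with 20.06 and 19.43 in LFD replicate 1 and 16.42 and 15.73 in HFD replicate 3. Of the list of salivary gland markers, 2 of 6 were in the table, and Aqp5, a water channel of salivary and other glands, averaged 5.60 over LFD mice, 5.50 over HFD mice and 7.50 over ob/ob mice. Whether any Amy1 signal came from another tissue was not tested.

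**Figure D1:**
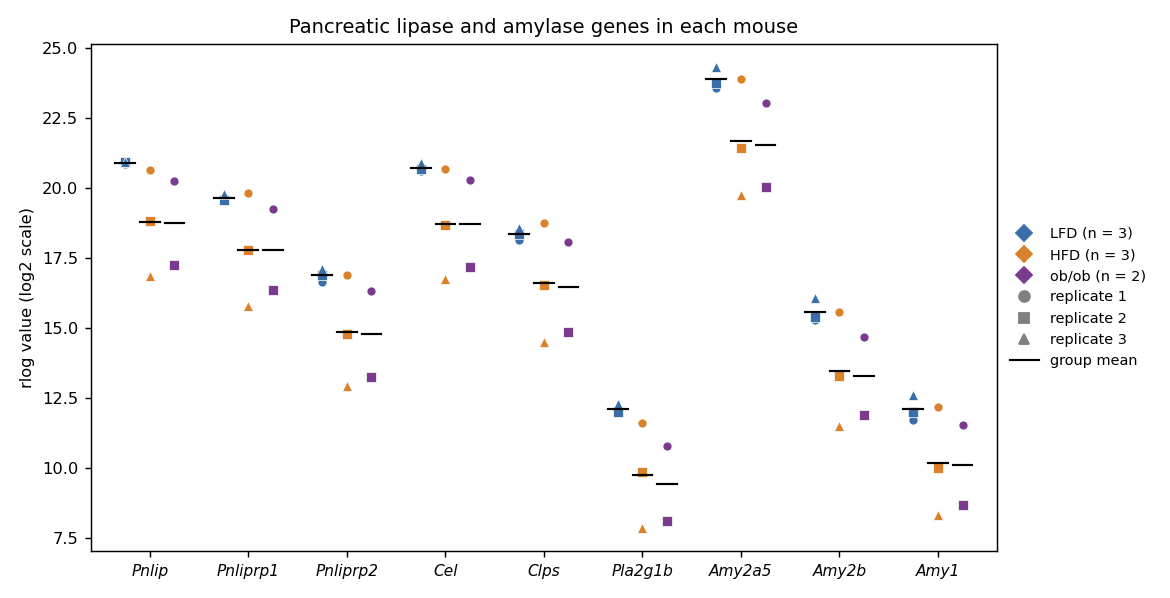
rlog values (log2 scale) of the 9 genes in each mouse, with color for the group (3 LFD, 3 HFD and 2 ob/ob mice), shape for the replicate number and a black line for the group mean. LFD mice lie closer together than HFD or ob/ob mice for every gene, with ranges from 0.0965 for Pnlip to 0.892 for Amy1. HFD and ob/ob mice spread over about 3 or 4 log2 units, from 20.65 down to 16.86 for Pnlip in HFD.

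The mean of each of the 9 genes was lower in HFD than in LFD mice, but no difference passed the test, and the lower means came from HFD replicates 2 and 3. The differences of means ran from -1.75 for Clps (3.37-fold lower) to -2.32 for Pla2g1b (5.0-fold lower), with -2.13 for Pnlip, -1.84 for Pnliprp1, -2.01 for Pnliprp2, -2.02 for Cel, -2.19 for Amy2a5, -2.13 for Amy2b and -1.94 for Amy1. With limma over all genes, 0 of the 9 genes had an adjusted p under 0.05, as did 0% of the 15047 genes. Pla2g1b came nearest, at -2.32 (SE 0.918, unadjusted p = 0.0334, adjusted p = 0.226). It was the 1 gene of 9 with an unadjusted p under 0.05, against 8.35% of all genes lower and 11.5% higher in HFD. Pla2g1b and Pnlip, 2 of the 9 genes, had no overlap between the groups, against 12.3% of all genes that were lower in HFD without overlap. In the acinar reference 3 of 26 genes were lower in HFD without overlap. The SE of a gene in limma follows the trend of the variance on the mean, and at the top of the table it was larger than the gene's own spread, with 8.73 for Amy2a5 where its own variance gave 1.34 (-2.19, adjusted p = 0.429 with each gene's own variance). Leaving out HFD replicate 1 gave adjusted p-values under 0.05 for 3 of the 9 genes, Pla2g1b (-3.23, 0.0282), Amy2b (-3.18, 0.0341) and Amy1 (-2.95, 0.0371), and for 18.7% of all genes. Limma's array weights gave 5 of 9, where 44.2% of all genes were called. Leaving out the 3 mice with low acinar transcripts instead (HFD replicates 2 and 3 and ob/ob replicate 2, a choice made from their acinar values, with HFD replicate 1 as the only HFD mouse) gave 0 of 9 and differences between -0.50 for Pla2g1b and 0.39 for Clps, positive for 5 of the 9 genes.

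In ob/ob mice the same 9 genes were lower than in LFD mice, by -1.84 for Pnliprp1 (3.59-fold lower) to -2.65 for Pla2g1b (6.28-fold lower). The other differences were -2.16 for Pnlip, -2.09 for Pnliprp2, -1.99 for Cel, -1.88 for Clps, -2.36 for Amy2a5, -2.30 for Amy2b and -2.01 for Amy1. None had an adjusted p under 0.05 (0 of 9, and 0% of all genes), and Pla2g1b again came nearest (-2.65, SE 1.03, unadjusted p = 0.0306, adjusted p = 0.239). It was again the 1 gene of 9 with an unadjusted p under 0.05, against 7.18% of all genes lower and 11.6% higher in ob/ob. For all 9 genes both ob/ob mice lay below all LFD mice, against 21.8% of all genes. The same held for 21 of the 26 acinar reference genes, so it was not particular to the lipases and amylases. Without the 3 mice low in acinar transcripts, ob/ob replicate 1 alone lay below the LFD mean by -0.28 for Clps to -1.31 for Pla2g1b, values of 1 mouse whose own spread is not known. The comparisons of HFD and of ob/ob with LFD share the LFD mice and are not independent. Between ob/ob and HFD the differences lay between -0.33 and 0.02, 0 of 9 genes had an adjusted p under 0.05 (0% of all genes), and the groups overlapped for each of the 9 genes, while 5.42% of all genes were lower and 7.92% higher in ob/ob without overlap.

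The spread within the obese groups was larger than the difference between them. Against the LFD mean, HFD replicate 1 was between -0.50 and 0.39 over the 9 genes, HFD replicate 2 was 3.54-fold to 5.49-fold lower, and HFD replicate 3 was 13.8-fold to 18.7-fold lower. The first ob/ob mouse was 1.21-fold to 2.47-fold lower and the second 9.81-fold to 15.9-fold lower. Within a mouse the 9 genes therefore lay close together, and the SD of a gene over the 8 mice was 1.64 to 1.81 on the rlog scale, against a median of 1.72 for the acinar reference.

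**Figure D2:**
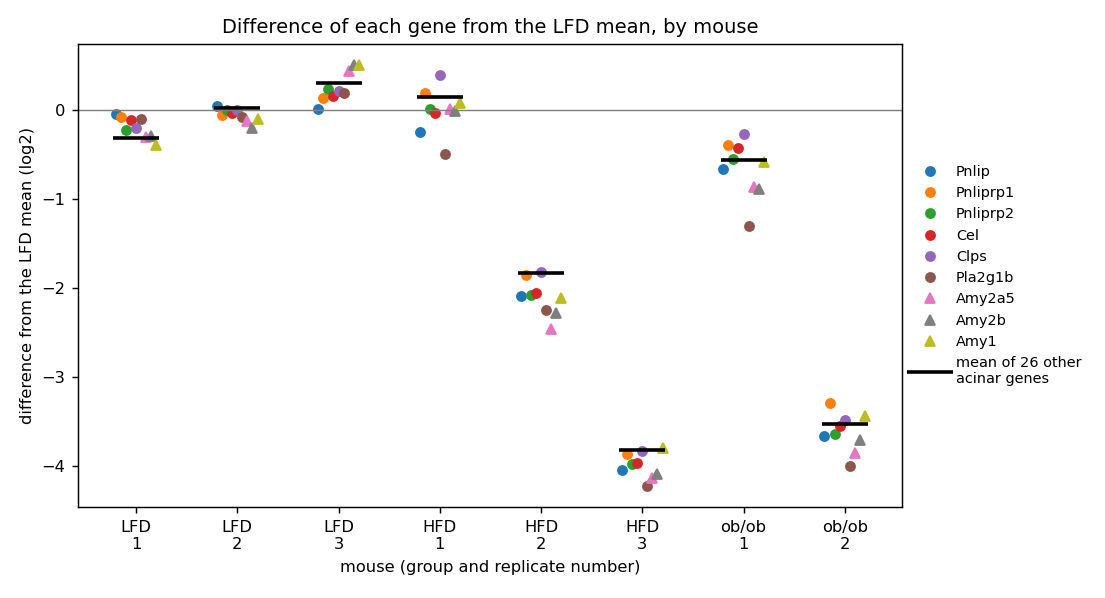
Difference of each of the 9 genes from its LFD mean (log2, y axis) in each of the 8 mice (x axis), with circles for lipid enzymes, triangles for amylases and a black bar for the mean of the 26 acinar reference genes. The genes of a mouse stay near the bar, which moves from near 0 in LFD mice and HFD replicate 1 to about -4 in HFD replicate 3, and Pla2g1b is the lowest point in HFD replicates 1 and 3 and in both ob/ob mice.

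To ask how each enzyme stood against the other secreted products of the same acinar cells, the mean of the acinar reference in the same mouse was subtracted from each rlog value. On this relative scale the SD over the 8 mice was 0.108 to 0.313, with a median of 0.153 over the 9 genes, and the median SD of a reference gene against the mean of the other reference genes was 0.203. Pla2g1b had the widest spread of the 9 genes. Its relative values were -4.24, -4.54 and -4.57 in LFD, -5.08, -4.87 and -4.86 in HFD, and -5.19 and -4.92 in ob/ob mice. All 5 obese mice lay below all LFD mice. This included HFD replicate 1, whose acinar reference (16.69) lay within the range of LFD mice. In ob/ob replicate 1 the acinar reference was 15.98, below all LFD mice (16.23 to 16.85). The difference was -0.49 in HFD (95% confidence interval from -0.83 to -0.14 and adjusted p = 0.357, each gene's own variance) and -0.61 in ob/ob mice (from -0.99 to -0.22, adjusted p = 0.356). This variance setting was chosen after seeing the data, and its intervals are not adjusted for the number of genes. With limma's empirical Bayes, whose variance on this scale is set by the non-acinar genes, the adjusted p-values were 0.712 and 0.680. With the acinar reference as a covariate in place of the subtraction, the differences of Pla2g1b were -0.63 (SE 0.151, adjusted p = 0.262) and -0.76 (SE 0.168, adjusted p = 0.173). No setting of the relative scale other than array weights in HFD brought Pla2g1b under an adjusted p of 0.05, and without the 3 mice low in acinar transcripts its differences were -0.63 and -0.74.

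Amy2a5 had relative values of 7.35, 7.20 and 7.46 in LFD, 7.21, 6.71 and 7.02 in HFD, and 7.04 and 7.00 in ob/ob mice. Both ob/ob mice lay below the LFD mice, and HFD replicate 1 was just above the lowest LFD mouse. The difference was -0.36 in HFD (SE 0.166, adjusted p = 0.365, limma) and -0.32 in ob/ob mice (SE 0.186, adjusted p = 0.367, limma). Without HFD replicate 1, Amy2a5 was -0.47 in HFD with an adjusted p of 0.0392 (limma), the 1 gene of 9 that passed there, where 28.1% of all genes passed. Amy2b, the amylase with near-identical sequence, was -0.29 and -0.25, and Amy1, the copy that shares few stretches with the others, was -0.11 in HFD and 0.04 in ob/ob mice. The other copies were -0.0015 and -0.024 for Amy2a1 and -0.17 and -0.28 for Amy2a4.

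Of the other genes of lipid digestion, Pnlip had relative values of 4.62, 4.38 and 4.06 in LFD, 3.96, 4.09 and 4.13 in HFD, and 4.26 and 4.21 in ob/ob mice, with differences of -0.29 and -0.12. The groups overlapped because LFD replicate 3 lay within the HFD range. The differences in HFD and ob/ob mice were -0.18 and 0.05 for Cel, -0.18 and -0.05 for Pnliprp2, -0.006 and 0.20 for Pnliprp1, and 0.08 and 0.17 for Clps, none of which passed the test. Clps had the highest relative difference of the 9 genes in HFD against LFD, and Pla2g1b the lowest in both comparisons.

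Counted over the 9 genes on the relative scale, 0 had an adjusted p under 0.05 in each of the 3 comparisons, as did 0% of the 15021 genes outside the reference. Pla2g1b and Pnliprp2 (2 of 9) were lower in all HFD than in all LFD mice, against 0.0599% of all genes, and Pla2g1b and Amy2a5 (2 of 9) were lower in both ob/ob than in all LFD mice, against 0.0932%. Pnlip, Pnliprp1, Pnliprp2 and Cel (4 of 9) were higher in both ob/ob than in all HFD mice, against 0.0999%. These background shares are small because genes of other cells lie far above 0 on this scale, with a median difference of 1.87 in HFD and 2.09 in ob/ob mice over all genes. The reference genes themselves, each against the mean of the other reference genes, give a nearer background. Of these, 5 of 26 were lower in all HFD and 7 of 26 in both ob/ob than in all LFD mice, and 7 of 26 were higher in both ob/ob than in all HFD mice. The reference genes Try4, Ctrc, Cela2a and Klk1 were lower than all LFD mice in both comparisons, as Pla2g1b was. Try4 differed by -0.48 in HFD and -0.66 in ob/ob mice, beside -0.49 and -0.61 for Pla2g1b.

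**Figure D3:**
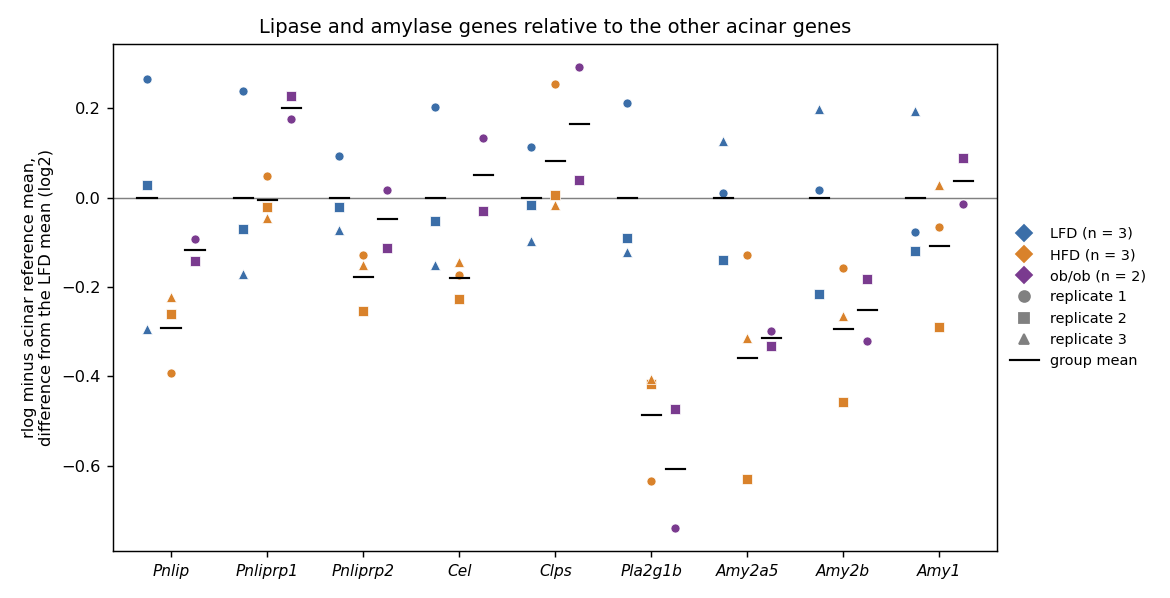
Relative values of the 9 genes (rlog minus the mean of the 26 acinar reference genes of the same mouse, shown as the difference from the LFD mean in log2 units), with color for the group, shape for the replicate number and a black line for the group mean. Pla2g1b is the gene whose obese mice all lie well below LFD, with means of -0.49 and -0.61, and the other group means lie between -0.36 and 0.20.

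The ratio of lipase to amylase was read as the rlog value of Pnlip minus that of Amy2a5 in the same mouse, as a description without a test. It was -2.73, -2.82 and -3.41 in LFD, -3.25, -2.61 and -2.89 in HFD, and -2.78 and -2.79 in ob/ob mice. The groups overlapped, with LFD mice at -2.98 ± 0.37 (mean ± SD, n = 3), HFD mice at -2.92 ± 0.32 (n = 3) and ob/ob mice at -2.79 ± 0.01 (n = 2). The mean differed from LFD by 0.07 in HFD and by 0.20 in ob/ob mice, both less than the SD of the LFD mice, and leaving out 1 mouse in turn gave -0.14 to 0.23 for HFD and -0.012 to 0.33 for ob/ob mice. Without the 3 mice low in acinar transcripts the difference was -0.26 in HFD and 0.21 in ob/ob mice, again smaller than the SD of the LFD mice. For Cel minus Amy2a5 the values were -2.97, -3.07 and -3.44 in LFD, -3.20, -2.76 and -2.99 in HFD, and -2.73 and -2.86 in ob/ob mice, so that both ob/ob mice were above all LFD mice. The ratio of Clps to Amy2a5 was higher in all 5 obese mice than in all LFD mice, with -5.43, -5.41 and -5.76 in LFD, -5.15, -4.90 and -5.24 in HFD, and -4.94 and -5.16 in ob/ob mice. Pnliprp1 minus Amy2a5 and Pnliprp2 minus Amy2a5 were also higher in both ob/ob mice than in all LFD mice. Their mean differences from LFD were 0.52 and 0.27 in ob/ob mice, and 0.35 and 0.18 in HFD mice, which overlapped with LFD. Pla2g1b minus Amy2a5 overlapped with LFD in both groups, with mean differences of -0.13 in HFD and -0.29 in ob/ob mice. So did Pnlip minus Amy2b, with 0.0024 and 0.13, and Pnlip minus the mean of the 3 amylases, with -0.038 and 0.060. These ratios carry the uncertainty of how reads were divided between Amy2a5 and its copies.

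Ratios among the lipid enzymes do not depend on the amylase copies. Pnliprp1 minus Pnlip was -1.28, -1.36 and -1.13 in LFD, -0.82, -1.02 and -1.08 in HFD, and -0.99 and -0.89 in ob/ob mice, higher in all obese mice than in all LFD mice. Pla2g1b minus Pnlip was -8.85, -8.92 and -8.63 in LFD, -9.04, -8.96 and -8.99 in HFD, and -9.45 and -9.13 in ob/ob mice, lower in all obese mice. Clps minus Pnlip was -2.70, -2.60 and -2.35 in LFD, -1.90, -2.28 and -2.34 in HFD, and -2.17 and -2.37 in ob/ob mice. Cofactor against lipase was thus higher in all HFD mice than in all LFD mice, with HFD replicate 3 just above LFD replicate 3, and overlapped in ob/ob mice. Pnliprp2 and Cel against Pnlip overlapped between all groups, with SDs over the 8 mice of 0.14 and 0.12. How often ratios of other acinar genes separate the groups in the same way was not computed, here or for the ratios to Amy2a5.

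**Figure D4:**
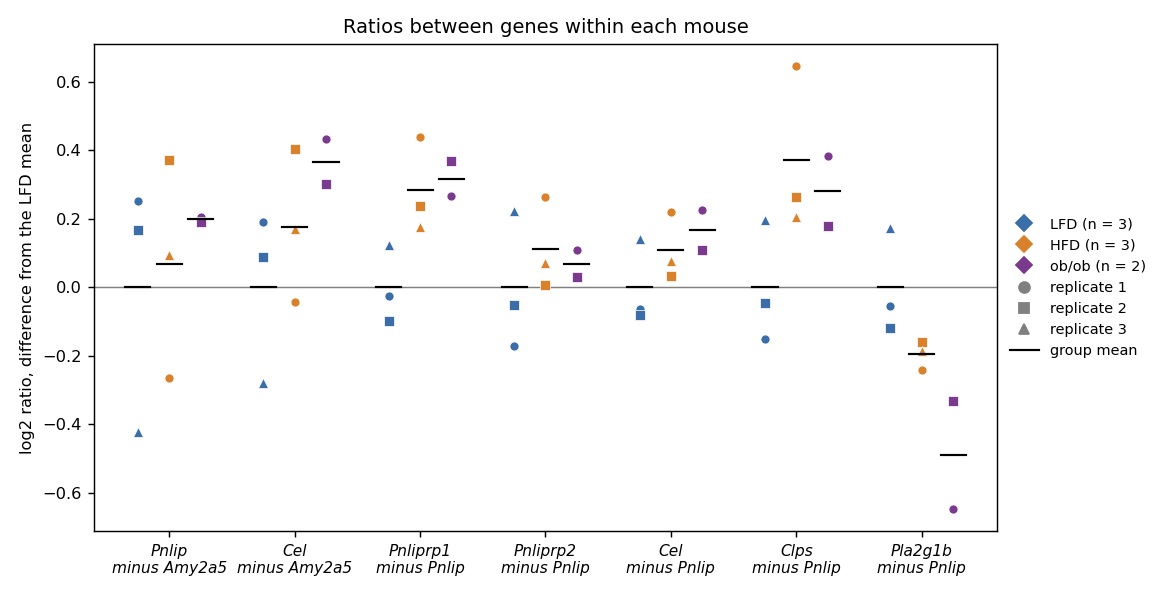
Log2 ratios between genes within each mouse, shown as the difference from the LFD mean, with color for the group, shape for the replicate number and a black line for the group mean. Pnlip minus Amy2a5 overlaps between groups, Pnliprp1 minus Pnlip is higher and Pla2g1b minus Pnlip lower in all 5 obese mice than in LFD mice.

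The 250 bases before the RefSeq transcription start are shown for Amy2a5, its close copy Amy2b, and Pnlip (RefSeq, GRCm38.p6), 5′ to 3′ on the strand of the gene. Matches to an E box (CANNTG), an RBPJ-type box (TGGGAA) or an NR5A2-type site (AAGGTCA), on either strand, are in capitals. The factors that bind such letters include PTF1A and BHLHA15, RBPJL, and NR5A2, known regulators of acinar genes.

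Amy2a5, chr3:113258700-113258949, minus strand: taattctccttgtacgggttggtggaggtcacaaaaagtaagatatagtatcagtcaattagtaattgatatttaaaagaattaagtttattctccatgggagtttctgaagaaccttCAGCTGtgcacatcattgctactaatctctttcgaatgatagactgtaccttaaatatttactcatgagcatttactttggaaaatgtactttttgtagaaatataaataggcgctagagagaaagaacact
Amy2b, chr3:113156728-113156977, minus strand: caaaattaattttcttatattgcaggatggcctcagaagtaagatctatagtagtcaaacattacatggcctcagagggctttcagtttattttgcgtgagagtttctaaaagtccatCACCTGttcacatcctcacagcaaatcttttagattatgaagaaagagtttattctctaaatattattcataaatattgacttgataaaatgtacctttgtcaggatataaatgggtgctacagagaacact
Pnlip, chr19:58670115-58670364, plus strand: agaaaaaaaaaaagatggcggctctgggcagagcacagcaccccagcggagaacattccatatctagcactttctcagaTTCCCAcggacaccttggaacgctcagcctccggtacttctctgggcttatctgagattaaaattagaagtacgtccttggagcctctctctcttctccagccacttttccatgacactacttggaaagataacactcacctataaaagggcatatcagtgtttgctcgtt

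Amy2a5 and Amy2b each held 1 E box, 132 bases before the start, and Pnlip held 1 TGGGAA box, 171 bases before it. Promoters were found for 8 of the 9 genes, in 9 entries since Amy1 has more than 1 start. In windows of 300 bases, which add 50 bases after the start, 6 of the 9 promoters held CANNTG, against 72.3% of 32851 promoters of the same length, 4 held TGGGAA, against 25.6%, and 1, that of Cel, held AAGGTCA, against 4.72%. A match is a description of the letters and not a binding site.

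Genes known to regulate acinar enzymes, a list of transcription factors and receptors, mostly had lower means in obese mice, with medians nearer 0 than those of the enzymes. Of 28 such genes, 24 had a lower mean in HFD and 23 in ob/ob than in LFD mice, with median differences of -0.487 and -0.996 where the median of all genes was 0.03 and 0.04. In HFD 2 were lower and 1 higher with an unadjusted p under 0.05, against 8.35% and 11.5% of all genes. In ob/ob mice 7 were lower and 1 higher, against 7.18% and 11.6% of all genes. None of the 28 had an adjusted p under 0.05 (0% of all genes). Cckar, the receptor through which cholecystokinin triggers enzyme secretion, was -1.99 in HFD (adjusted p = 0.268, limma). Klf15, a glucocorticoid-responsive factor, was -2.11 in HFD and -2.08 in ob/ob mice (adjusted p = 0.233 in HFD, limma). Bhlha15, which shapes the secretory apparatus of acinar cells, was -2.24 in ob/ob mice (adjusted p = 0.272, limma). The largest positive differences were those of Rbpj, the widely expressed relative of the acinar factor RBPJL (0.96 and 1.15), Tcf3, an E-box partner of PTF1A (0.56 in HFD), and Gipr, the receptor of an incretin hormone (0.67 in ob/ob mice).

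The lipases and phospholipases that act outside digestion had medians near 0. Of 29 listed genes 22 had values, with median differences of -0.0018 in HFD and -0.089 in ob/ob mice, 11 negative and 11 positive in each comparison. With an unadjusted p under 0.05, 4 were higher and 1 lower in HFD, against 11.5% and 8.35% of all genes. In ob/ob mice 6 were higher and 1 lower, against 11.6% and 7.18% of all genes. None of the 22 had an adjusted p under 0.05 (0% of all genes). Ces1d, a carboxylesterase that hydrolyses triglycerides, had the largest negative difference, -1.44 in HFD and -1.72 in ob/ob mice, and the next were Pla2g12a, a secreted phospholipase (-0.88 in HFD), and Dagla, a diacylglycerol lipase (-0.92 in ob/ob mice). The largest positive differences were those of Plbd1, a phospholipase B-like protein (1.38 and 1.41), Pla2g4a, which releases arachidonic acid (1.35 in HFD), and Pla2g7, the platelet-activating factor hydrolase of macrophages (1.92 in ob/ob mice). Of 13 listed enzymes of starch and glycogen other than amylase, 10 had values, with medians of -0.043 and 0.11. With an unadjusted p under 0.05 there were 0 in HFD and 1, lower, in ob/ob mice, against the same shares of all genes. Those with the largest differences were Mgam, the intestinal maltase (1.68 and 0.66), Pygl and Pygm, the liver and muscle glycogen phosphorylases (0.78 and 0.85, -0.39 and -0.71), Gbe1, the glycogen branching enzyme (-0.45 in HFD), and Ganc, a neutral alpha-glucosidase (-0.27 in ob/ob mice).

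The acinar reference itself had a lower mean for 25 of 26 genes in HFD and 26 of 26 in ob/ob mice, with medians of -1.95 and -2.10, beside -2.02 for the median of the 9 enzymes in HFD (Cel) and -2.09 in ob/ob mice (Pnliprp2). Its largest differences were those of the trypsinogen Prss3 and the granule membrane protein Gp2 (both -2.34) in HFD, and of the trypsinogen Try4 (-2.68) and the elastase Cela3a (-2.61) in ob/ob mice, and its 1 positive difference in HFD was 1810009J06Rik, a trypsinogen-like gene (0.30). The subset of 16 acinar proteases had medians of -1.95 and -2.11.

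**Figure D5:**
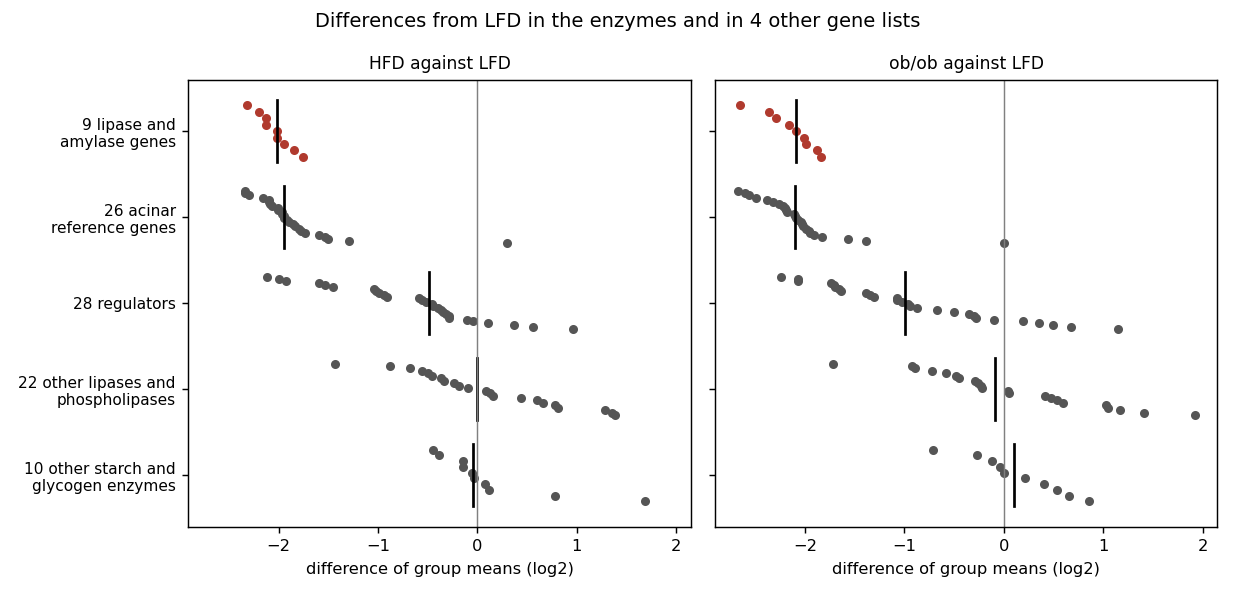
Differences of group means from LFD (log2, x axis) in HFD (left) and ob/ob mice (right), 1 point per gene, for the 9 lipase and amylase genes (red) and 4 other lists (grey), with a black line at the median of each list. The enzymes and the acinar reference center near -2, the regulators lie between them and 0 (medians -0.487 and -0.996), and the other lipases and the other starch and glycogen enzymes lie around 0.

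Markers of leukocytes and fibroblasts mostly had higher means in obese mice, where the enzymes had lower ones, and the part of other cell types in the enzyme values was not tested. Of 8 leukocyte markers 7 had a higher mean in HFD and 7 in ob/ob mice, and the log2 of their summed level was 12.96 to 13.48 in LFD, 13.77 to 14.71 in HFD and 14.24 to 15.16 in ob/ob mice. Of 8 fibroblast markers 7 and 8 had a higher mean, with summed levels of 13.52 to 13.80 in LFD, 14.14 to 15.36 in HFD and 14.64 to 15.76 in ob/ob mice. Ductal markers were 12.96 to 13.22 in LFD, 13.55 to 14.67 in HFD and 13.75 to 14.24 in ob/ob mice, with 5 and 3 of 8 higher. Islet markers were 13.09 to 14.07 in LFD, 12.61 to 13.46 in HFD and 14.07 to 15.18 in ob/ob mice, with 0 and 5 of 7 higher, and adipocyte markers were 10.64 to 10.98, 10.55 to 10.81 and 9.83 to 11.32, with 3 of 7 higher in each comparison. Salivary gland markers, of which 2 of 6 had values, were 11.12 to 11.50, 7.69 to 11.22 and 9.38 to 10.43, but in LFD mice this sum is nearly all Bhlha15 (11.09 to 11.48), which pancreatic acinar cells express too, so it does not measure salivary tissue. The lowest value of any gene was 0.466, so that no marker could be at 0. The lowest group mean of a marker was 2.94, that of a leukocyte marker in LFD mice.

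The genes whose rlog values were most like those of Pnlip over the 8 mice were Cpa1, a carboxypeptidase of the acinar reference (Pearson r = 0.999), Itih2, an inter-alpha-trypsin inhibitor chain, Cckar, Klb, the co-receptor of FGF21, and Tff2, a trefoil factor (r from 0.998 to 0.999). Those most like Amy2a5 were Gnmt, the glycine N-methyltransferase, Pcbd1, 1810053B23Rik, Cela2a, an elastase of the reference, and Pdia2, a disulfide isomerase of the pancreas (r from 0.998 to 0.999). These are descriptions over 8 mice that share the differences in acinar content described above, and within the acinar reference the lowest r was 0.539 with Pnlip and 0.515 with Amy2a5.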

How the data were processed

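Pancreas RNA of 8 male mice was sequenced. For these libraries the authors ran Salmon 0.11.3 on Gencode M18 transcripts (GRCm38.p6), summed them to genes with tximport, and applied the rlog transformation of DESeq2 1.22.2. The deposited values are rlog values on a log2 scale for 15047 genes, and rlog draws genes with few reads toward their mean. Counts were not analysed here, so depth is unknown and no count test was run.

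Groups came from the sample labels. Limma 3.58.1 (R 4.3.3) was fitted to all 8 mice with 1 mean a group, empirical Bayes with a trend on the mean and two-sided p-values, adjusted by Benjamini-Hochberg over all genes. The relative scale subtracts the mean rlog value of 26 acinar genes in the same mouse (27 were listed, and Spink3 was not analysed here), and its test covers the other 15021 genes. The limma step was tested on simulated data. The 9 genes and all lists were chosen with earlier results of these data known. Named genes are the 9, the 2 of each enzyme or regulator list with the largest difference each way from LFD (fewer where fewer exist), the 5 most like Pnlip and Amy2a5 by Pearson r, and other amylase copies in the table. Marker lists are given by counts.

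Alternatives were no variance trend, robust empirical Bayes, only the groups compared, a minimum mean rlog value of 5, array weights, a block on the replicate number, median centring, quantile normalization, each mouse left out in turn, other references (proteases, the median, a covariate), other genes in the ratio and, chosen after seeing the data, each gene's own variance and leaving out 3 mice low in acinar transcripts. P-values rest on the spread between these mice, which limma moderates with the spread of all genes, except in the setting with each gene's own variance. Gene lengths, coding sequences and shared stretches of 31 bases came from Gencode M21, and promoters from RefSeq, in Python 3.11.15.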

Additional observations from a re-analysis of the deposited data

How the results depend on the processing

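The counts of genes with an adjusted p under 0.05 were 0 of 9 in every comparison under all alternatives except those named here. In HFD against LFD the array weights gave 5 of 9 (Pla2g1b, Amy2b, Amy1, Pnliprp2 and Clps, with 44.2% of all genes called) and leaving out 1 mouse in turn gave 0 to 3, with 3 without HFD replicate 1 (18.7% of all genes). Relative to the acinar reference the array weights gave 6 of 9 (Pnlip, Pnliprp2, Cel, Pla2g1b, Amy2a5 and Amy2b, with 97.6% of all genes called) and leaving out 1 mouse gave 0 to 1, with 1 without HFD replicate 1 (28.1% of all genes). Leaving out HFD replicates 2 and 3 and ob/ob replicate 2 together gave 1 of 9 in ob/ob against LFD (Pla2g1b, with 0.292% of all genes called), where the spread comes from the LFD mice alone and the lone ob/ob mouse is assumed to vary like them. It also gave differences of 0.186 for Pnliprp1, 0.0100 for Pnliprp2, 0.392 for Clps, 0.0093 for Amy2a5 and 0.0730 for Amy1 in HFD in place of negative ones, relative differences of 0.0482 for Pnliprp1 in HFD, and of 0.0171 for Pnliprp2 and -0.0137 for Amy1 in ob/ob mice, and a ratio of Pnlip to Amy2a5 that was 0.470 higher in ob/ob replicate 1 than in HFD replicate 1, against 0.132 over all mice. The cause of these differences was not tested. Over leaving out 1 mouse, the differences of the 9 genes from LFD stayed negative on the rlog scale, between -3.30 and -0.72 in HFD and between -4.00 and -0.28 in ob/ob mice. Quantile normalization, which fixes the values at each rank, gave 0 for Pnliprp1 in HFD, and 0.0749 for Pnliprp1 and 0.0496 for Cel in ob/ob mice in place of negative differences. It also shrank the differences of other abundant genes in HFD, to -0.26 for Pnlip, -0.10 for Cel, -0.30 for Clps and -0.39 for Amy2a5. Those of less abundant genes in HFD were -1.09 for Pnliprp2, -1.65 for Amy2b, -1.78 for Amy1 and -2.17 for Pla2g1b. On the relative scale several small differences had the other sign. The proteases as the reference gave 0.102 for Pnliprp1 in HFD, and 0.0034 for Pnlip and 0.0721 for Pnliprp2 in ob/ob mice. The median of the reference gave 0.0283 for Pnliprp1 in HFD and -0.0133 for Amy1 in ob/ob mice, and the covariate gave -0.0043 for Amy1 in ob/ob mice. Leaving out 1 mouse gave ranges across 0 for Pnliprp1 (-0.0909 to 0.114) and Clps (-0.0050 to 0.139) in HFD, and for Pnlip (-0.263 to 0.0161), Pnliprp2 (-0.112 to 0.0171), Cel (-0.0308 to 0.153) and Amy1 (-0.0213 to 0.136) in ob/ob mice. Pla2g1b stayed negative on the relative scale in both comparisons under every alternative, with adjusted p-values from 0.0382 to 1.00 in HFD and from 0.173 to 1.00 in ob/ob mice.

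The replicate numbers name different animals and were not taken to pair them. Deviations of same-numbered mice from their group means correlated across genes at -0.0595, 0.113 and -0.281 for LFD and HFD, at -0.0967 and 0.128 for LFD and ob/ob, and at 0.592 and 0.303 for HFD and ob/ob, so not every pair was above 0.1. With the replicate number as a block, 0 of 9 genes passed in each comparison, as without it.

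The precision is limited by 2 or 3 mice in a group, by a depth that is unknown, and by acinar content, which varied more within the HFD and ob/ob groups than between them.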

Other observations

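Mgam, the maltase that completes the digestion of starch in the intestinal brush border, had rlog values of 6.69, 7.01 and 6.53 in LFD, 7.33, 6.87 and 11.1 in HFD, and 7.61 and 7.19 in ob/ob mice. The value in HFD replicate 3, the mouse with the lowest amylase and lipase values, stood well above the other 7 mice. Its source was not tested.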
